A study of Rattus norvegicus with 50 samples.

Results

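The proteasome genes of rat blood were followed over 28 days, on 46 probe sets of 45 gene symbols out of 36685 probe sets on the array. A probe set was a member when the platform table gave it a single gene symbol of the proteasome families, the letters Psm, a letter from a to g and a number. Of these 46, 40 were probe sets of subunits, activators, an inhibitor and assembly chaperones, and 6 were other genes with such a symbol. Each member symbol was the same in RefSeq. Blood was drawn from the tail vein of 10 male Wistar rats at days 0, 2, 14, 21 and 28. In 6 rats monosodium iodoacetate (MIA), a poison of glycolysis that damages cartilage, was injected once into the right knee joint after the day 0 bleeding, as a model of osteoarthritis. The other 4 rats were naive, intact animals without any injection, so that MIA and the injection itself cannot be told apart. Naive rats were bled on the same days, and their age was not given in the sources used here. The methods state 6 samples a group, and the groups here follow the labels, 6 MIA and 4 naive rats.

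The proteasome is the large protease that degrades ubiquitin-tagged proteins in the cytosol and nucleus. Its barrel-shaped core is built from rings of alpha subunits (Psma), which form the gate, and of beta subunits (Psmb), of which Psmb5, Psmb6 and Psmb7 carry the proteolytic sites. White blood cells and cells exposed to interferon replace these with Psmb8, Psmb9 and Psmb10, respectively, and the resulting immunoproteasome is known for producing peptides for MHC class I molecules. Regulators sit on the ends of the core. The regulatory particle, made of ATPases (Psmc) and non-ATPases (Psmd), recognises and unfolds ubiquitinated proteins, whereas activators (Psme) open the gate without ubiquitin. In blood, reticulocytes, the last nucleus-free precursors of red cells, also carry proteasomes and degrade much of their protein while they mature.

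Values are log2 signals of single probe sets, and a change is the day's group mean minus the day 0 mean of the same treatment, in log2 units. One array, MIA day 21 replicate 4, stood apart from the others. Its log2 signals had an SD of 1.00, against 1.80 to 1.99 on the other 49 arrays, and its mean correlation with the other arrays was 0.243, against 0.934 to 0.968. It was left out, so MIA day 21 holds 5 rats. This choice matters, because with all 50 arrays in the fit no member passed the threshold in any change at days 21 or 28. The same fit called 4 of all 36685 probe sets in MIA rats at day 28, against 1564 without that array. The day 28 changes themselves were the same in both fits, since neither the day 28 nor the day 0 groups hold that array. The platform's table does not reach all proteasome genes, since 4 probe sets of Psme3 and 1 of Psme2 carried several symbols and were not members. Psma2, Psma3, Psmc3, Psmd3, Psmd4, Psmd9 and Psmg1 had no member probe set either. Counts by class below therefore cover only the genes with a member probe set. Of the members, 6 had a mean below the median of all probe sets, 2.26, namely Psma6-ps1, both probe sets of Psma8, Psmb11, Psmb3l2 and Psmg3.

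At day 28 the immunoproteasome genes were higher in MIA rats, the activator gene Psme4 and the lid gene Psmd8 were lower in both treatments, and no difference between the treatments passed the test. In MIA rats, 6 members passed an adjusted p of 0.05 at day 28 (limma, Benjamini-Hochberg over all probe sets), of which 4 rose, Psmb8, Psmb9, Psmb10 and Psmc2, and 2 fell, Psme4 and Psmd8. The share of all probe sets called in that comparison was 4.26%, with 2.39% higher and 1.87% lower. It was 6.06% of the probe sets with a single symbol and 7.45% of those at or above the median signal. The split depended on scaling. After each array was shifted to the same median, 8 of 9 called members were higher, and after a further quantile normalization 1 of 3, Psmb9. In naive rats, 2 members fell at day 28, again Psme4 and Psmd8, and 0 rose, against 2.04% of all probe sets, with 1.16% higher and 0.886% lower. At day 21 Psme4 alone was called, in MIA rats, where 0.665% of all probe sets were called, and in naive rats, where 0.333% were.

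Taking both treatments together, as the mean of the MIA and the naive change, 14 of 46 members passed at day 28, which is 30.4%. The background in that comparison was 12.0% of all probe sets, with 7.37% higher and 4.58% lower, 16.6% of those with a single symbol and 20.6% of those at or above the median signal. There were 6 higher members, Psma1, Psmb8, Psmb9, Psmc1, Psmc2 and Psmc6, and 8 lower ones, Psme4, Psmd8, Psma6, Psmb6, Psmb6l1, Psmb7, Psmf1 and Psmd13. Shifting the arrays to the same median left 10 calls with 6 higher, and a further quantile normalization left 9 with 2 higher. At day 21, 5 members were called in all rats, against 5.03% of all probe sets, with 1.52% higher and 3.51% lower. Psma1 was higher and Psme4, Psmd8, Psmb6 and Psmd13 were lower. A test of the 4 days together called 10 members (Psme4, Psmd8, Psma1, Psmb6, Psmb7, Psmb8, Psmb9, Psmb6l1, Psmb11 and Psmd1-ps1), against 10.2% of all probe sets. Across the 46 members the median change at day 28 was 0.08 in MIA and -0.00 in naive rats, and across all probe sets it was -0.02 and -0.01. The plot of day 28 changes shows members on both sides of 0 in most classes. The changes of a treatment at the 4 days share its day 0 arrays, and the change in all rats shares the arrays of both treatments.

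**Figure D1:**
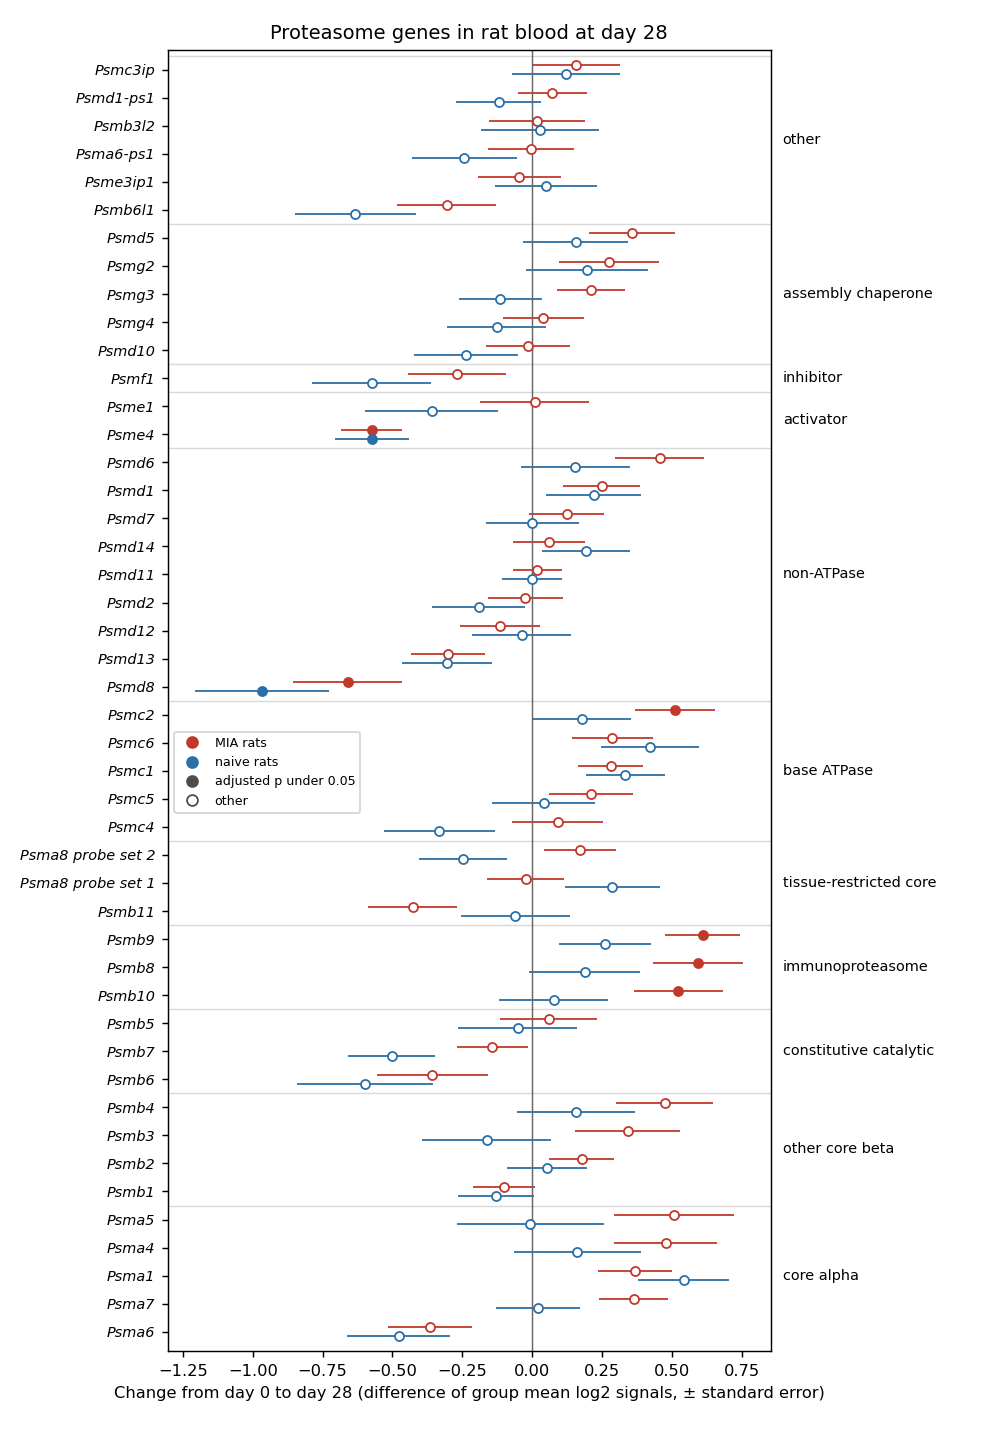
Change of each member from day 0 to day 28 in log2 units on the x axis, with its standard error as bars, for MIA (red) and naive (blue) rats, members on the y axis by class. Filled points passed an adjusted p of 0.05. The 3 immunoproteasome genes lie between 0.52 and 0.61 in MIA rats, and Psme4 and Psmd8 are filled in both treatments.

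At days 2 and 14 no member passed in MIA, naive or all rats (limma). At an unadjusted p of 0.05, 1 member at day 2 and 7 at day 14 passed in MIA rats, 3 and 3 in naive rats, and 3 and 7 in all rats. At the adjusted threshold, 0% of all probe sets were called in each of these comparisons except naive day 14, with 0.00273%, and all rats day 14, with 0.0164%. Between treatments at day 0, 0 members were called and 2 had an unadjusted p under 0.05. The unadjusted counts stand without the share of all probe sets at their own threshold and are not read as a result.

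The 3 immunoproteasome genes rose in MIA rats by 0.52 to 0.61 at day 28, and in naive rats none was called, with changes of 0.08 to 0.26. Psmb8, Psmb9 and Psmb10 are the catalytic subunits that interferon-gamma induces, and Psmb8 and Psmb9 lie in the MHC region beside the genes of the peptide transporter. The sequence around their start sites is shown to see where motifs of interferon-driven genes lie. Each stretch runs from 150 bases before to 30 bases after the gene's start (RefSeq, GRCr8), and capitals mark matches, on either strand, to the interferon-stimulated response element, read here as GAAA and GAAA with any 2 bases between them, to TGACNNNGC, the antioxidant response element, and to CCAAT, the NF-Y box. The promoter of Psmb8 is chr20:4657002-4657181 on the minus strand, that of Psmb9 chr20:4668850-4669029 on the plus strand, and that of Psmb10 chr19:50743263-50743442 on the minus strand.
Psmb8: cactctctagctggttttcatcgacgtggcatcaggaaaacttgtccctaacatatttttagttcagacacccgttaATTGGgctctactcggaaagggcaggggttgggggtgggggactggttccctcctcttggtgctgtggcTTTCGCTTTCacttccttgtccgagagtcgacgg
Psmb9: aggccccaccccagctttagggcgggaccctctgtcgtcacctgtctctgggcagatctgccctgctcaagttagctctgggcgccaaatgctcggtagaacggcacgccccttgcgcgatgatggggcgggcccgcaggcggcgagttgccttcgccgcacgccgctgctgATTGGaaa
Psmb10: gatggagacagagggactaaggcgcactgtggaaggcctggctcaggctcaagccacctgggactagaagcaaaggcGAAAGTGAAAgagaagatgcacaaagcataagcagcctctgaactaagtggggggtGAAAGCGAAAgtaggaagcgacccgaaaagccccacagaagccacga

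In Psmb8 the interferon-stimulated match began at position -4 from the start, on the opposite strand, and in Psmb10 matches began at -73 and -17. The Psmb9 window held only a CCAAT match. Within 250 bases before to 50 after the start, 6 of the 37 member symbols with a promoter in the table held the paired GAAA motif (Psmb8, Psmb10, Psma4, Psmb3, Psmd7 and Psmg4), and 3.92% of 33469 promoters of the same length did. TGACNNNGC was found in 5 of 37 (Psmb2, Psmb5, Psmb6, Psmd1 and Psme4), against 12.1% of all promoters, and CCAAT in 17, against 37.5%. The GATA box AGATAA was found in 5, against 11.6%. A match is a match of letters and says nothing about binding of a factor.

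Psmb9 had the smallest p of these 3 genes in MIA rats at day 28. At day 0 the MIA rats had a lowest signal of 4.90, a median of 5.04 and a highest of 5.30, and at day 28 they had 5.48, 5.68 and 5.85. The days did not overlap. The naive rats had 5.14, 5.25, 5.19 and 5.13 at day 0 and 5.64, 5.60, 5.30 and 5.22 at day 28, so that 1 of the day 28 values lay within the day 0 range. Psmb9 rose in MIA rats by 0.61 ± 0.13 (SE, adjusted p = 0.0069, higher in 6 of 6 rats). Among naive rats the change was 0.26 ± 0.16 (adjusted p = 0.497, higher in 4 of 4). In all rats the rise was 0.44 ± 0.11 (adjusted p = 0.00481), and both calls of Psmb9 held when any of the 10 rats was left out.

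For Psmb8, the MIA rats had 4.82, 5.42 and 5.93 (lowest, median, highest) at day 0, and 5.81, 6.00 and 6.27 at day 28. The spread was wide at day 0 and narrow at day 28, and the ranges overlapped slightly. Naive values were 5.17, 5.79, 5.55 and 5.84 at day 0 and 5.73, 5.72, 5.59 and 6.06 at day 28, with overlap. Psmb8 rose in MIA rats by 0.59 ± 0.16 (SE, adjusted p = 0.0284, higher in 6 of 6), and its naive change was 0.19 ± 0.20 (adjusted p = 0.734, higher in 3 of 4). In all rats the rise was 0.39 ± 0.13 (adjusted p = 0.0371). The MIA call was lost when MIA rats were fitted alone (adjusted p = 0.0523). It was also lost without MIA replicate 1, 2, 3 or 5, with adjusted p up to 0.123, and after a further quantile normalization, with a change of 0.45 and an adjusted p of 0.0977. The call in all rats was lost without MIA replicate 1, 2 or 5 or naive replicate 1, 3 or 4, with adjusted p up to 0.136, and after that normalization (0.26, adjusted p = 0.201).

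Psmb10 had 5.12, 5.45 and 5.74 in MIA rats at day 0 and 5.78, 5.90 and 6.25 at day 28, without overlap. Naive signals were 5.06, 5.48, 5.52 and 5.58 at day 0 and 5.55, 5.67, 5.23 and 5.49 at day 28, with overlap. Its rise in MIA rats was 0.52 ± 0.16 (SE, adjusted p = 0.0488), close to the threshold, and in naive rats the change was 0.08 ± 0.19 (adjusted p = 0.91). The call held in 2 of the 10 fits without a rat, those without naive replicate 1 or 4, and the highest adjusted p, 0.131, came without MIA replicate 1. A further quantile normalization gave 0.37 with an adjusted p of 0.139. The call was also lost when MIA rats were fitted alone (adjusted p = 0.0726) and under a variance model with a trend and robust prior (0.0503). In all rats Psmb10 was not called (0.30 ± 0.13, adjusted p = 0.112).

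The class mean of these 3 genes within each rat was highest at day 28 in MIA rats. In MIA rats it changed by 0.04 ± 0.22 (SD, n = 6) at day 2, 0.16 ± 0.15 at day 14, 0.38 ± 0.32 (n = 5) at day 21 and 0.58 ± 0.18 at day 28, when 6 of 6 rats were higher. In naive rats it changed by -0.01 ± 0.09 (SD, n = 4), 0.11 ± 0.15, 0.18 ± 0.38 and 0.18 ± 0.24, when 3 of 4 rats were higher. The plot of catalytic subunits by rat shows each gene's course.

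**Figure D2:**
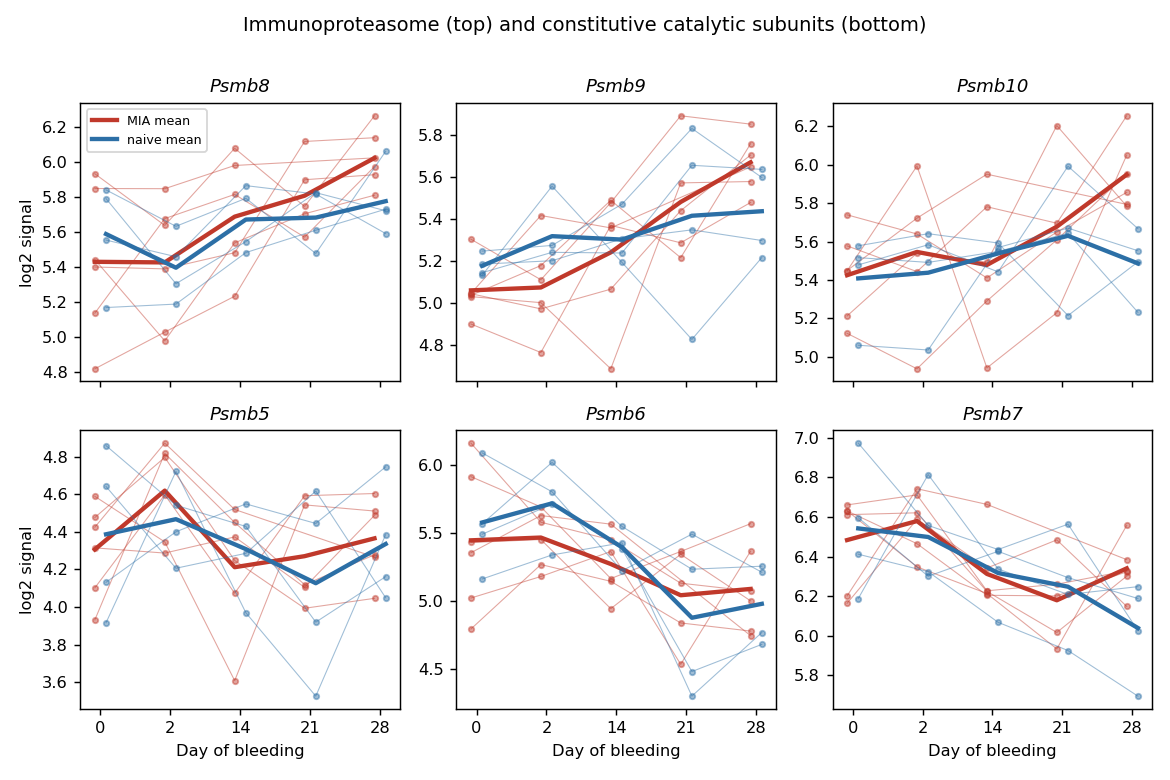
log2 signal on the y axis against the day of bleeding (evenly spaced) for the 3 immunoproteasome genes (top) and the constitutive subunits they replace (bottom). Thin lines are single rats, 6 MIA (red) and 4 naive (blue), thick lines are group means, and the line of MIA replicate 4 runs from day 14 to day 28. For Psmb9 all MIA values at day 28, from 5.48 up, lie above those at day 0, and Psmb6 ends lower than it began in 9 of 10 rats.

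None of the constitutive catalytic subunits was called higher at day 28. Psmb6 and Psmb7 fell in all rats at day 28, though neither was called in MIA or naive rats alone, and Psmb5 had a change of 0.00 ± 0.14 (SE, adjusted p = 0.989). The class mean changed by -0.15 ± 0.27 (SD, n = 6) in MIA rats, with 3 rats higher and 3 lower. In naive rats it changed by -0.38 ± 0.46 (SD, n = 4), with 1 rat higher and 3 lower. Psmb6, the caspase-like subunit, had 4.80, 5.40 and 6.16 (lowest, median, highest) in MIA rats at day 0 and 4.75, 5.04 and 5.57 at day 28. The naive rats had 5.57, 6.09, 5.49 and 5.16 at day 0 and 5.26, 5.21, 4.68 and 4.77 at day 28. The ranges overlapped in both treatments, and 9 of 10 rats were lower at day 28. Psmb6 fell by 0.55 at day 21 (SE 0.16, adjusted p = 0.0355) and by 0.48 at day 28 (SE 0.16, adjusted p = 0.0396) in all rats. The day 28 call held in 4 of the 10 fits without a rat and failed after shifting the arrays to the same median (-0.44, adjusted p = 0.0628). It was lost without MIA replicate 1, 3 or 4 or naive replicate 1, 2 or 3, with adjusted p up to 0.118. The day 21 call was lost without MIA replicate 2 or 3 or naive replicate 3 or 4 (up to 0.128) and after that shift (0.0692). After a further quantile normalization both calls held, with -0.60 at day 21 (adjusted p = 0.0191) and -0.63 at day 28 (0.0061).

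Psmb7, the trypsin-like subunit, had 6.16, 6.62 and 6.66 (lowest, median, highest) in MIA rats at day 0 and 6.15, 6.33 and 6.56 at day 28. Naive values were 6.19, 6.97, 6.41 and 6.60 at day 0 and 6.25, 6.03, 5.70 and 6.19 at day 28. Both treatments overlapped with their day 0. Psmb7 fell by 0.32 in all rats (SE 0.10, adjusted p = 0.0288). The change was -0.14 ± 0.13 in MIA rats (adjusted p = 0.544) and -0.50 ± 0.16 in naive rats (adjusted p = 0.0766). The call in all rats was lost without MIA replicate 2, 3 or 5 or any of naive replicates 2 to 4, with adjusted p up to 0.124. It was also lost after shifting the arrays to the same median (0.0663). After a further quantile normalization it held (-0.43, adjusted p = 0.00249), and Psmb7 was then called in naive rats alone (-0.60, adjusted p = 0.0201). Psmb5, the chymotrypsin-like subunit, had 3.93, 4.37 and 4.59 in MIA rats at day 0 and 4.05, 4.38 and 4.60 at day 28, nearly the same values.

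The promoter of Psmb6, chr10:55737738-55737917 on the plus strand, is shown for contrast with those of the immunoproteasome genes. Its capitals are the TGACNNNGC match, at -24.
Psmb6: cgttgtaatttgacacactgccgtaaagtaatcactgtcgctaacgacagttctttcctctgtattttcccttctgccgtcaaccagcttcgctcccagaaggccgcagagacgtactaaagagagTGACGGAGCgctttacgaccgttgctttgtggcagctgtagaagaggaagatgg

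The balance of each immunoproteasome gene against the subunit it replaces was then taken within each rat, as the change of the log2 difference from day 0. It describes these values without a test. For Psmb9 minus Psmb6 it was -0.01 ± 0.34 (SD, n = 6) in MIA rats at day 2, 0.36 ± 0.31 at day 14, 0.84 ± 0.52 (n = 5) at day 21 and 0.97 ± 0.45 at day 28. In naive rats the shift from day 0 was 0.00 ± 0.33 (SD, n = 4), 0.31 ± 0.55, 0.94 ± 0.30 and 0.86 ± 0.31. At day 28 it was higher in 6 of 6 MIA and 4 of 4 naive rats, so the balance of this pair moved in both treatments. For Psmb10 minus Psmb7 the day 28 shift was 0.67 ± 0.35 in MIA rats, higher in 6 of 6, and 0.58 ± 0.37 in naive rats, higher in 4 of 4. For Psmb8 minus Psmb5 it was 0.54 ± 0.26 in MIA rats, higher in 6 of 6, and 0.24 ± 0.46 in naive rats, higher in 2 of 4. At day 2 this last pair had moved the other way, by -0.32 ± 0.33 in MIA rats and -0.27 ± 0.53 in naive rats. A shift of a balance does not tell which partner moved. In naive rats at day 28, Psmb6 fell by more than Psmb9 rose, and Psmb7 fell by more than Psmb10 rose. None of these genes was called in naive rats alone.

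**Figure D3:**
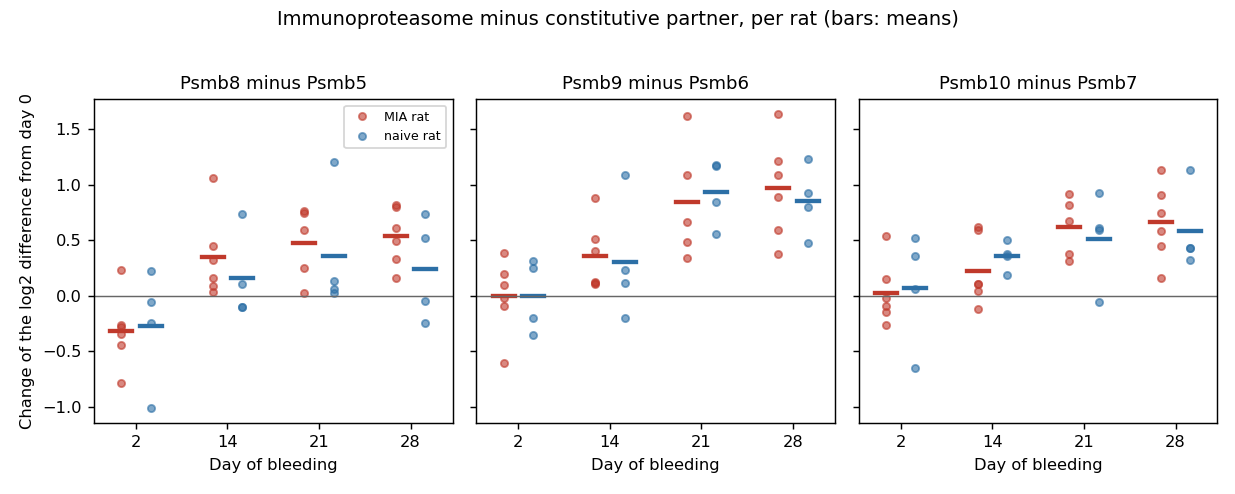
Change of the log2 difference between an immunoproteasome gene and its constitutive partner from day 0 (y axis, log2 units) by day of bleeding, one point a rat (red MIA, blue naive), with group means as bars. At day 28 all MIA points are above 0 in each pair, and the naive points are all above 0 for Psmb9 minus Psmb6 and Psmb10 minus Psmb7 but not for Psmb8 minus Psmb5.

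Among the other core subunits the alpha genes split. Psma1 rose and Psma6 fell in all rats at day 28, although both encode subunits of the same ring. Psma1 had 5.03, 5.42 and 5.73 (lowest, median, highest) in MIA rats at day 0 and 5.58, 5.74 and 6.07 at day 28. In naive rats it had 5.17, 5.31, 5.54 and 5.26 at day 0 and 5.80, 5.61, 5.92 and 6.11 at day 28, and only the naive rats were free of overlap. The rise of Psma1 in all rats was 0.41 ± 0.11 (SE, adjusted p = 0.0192) at day 21 and 0.46 ± 0.10 (adjusted p = 0.00293, higher in 9 of 10) at day 28. The day 28 call held without any single rat. The day 21 call was lost without MIA replicate 3 (adjusted p = 0.0597), naive replicate 1 (0.0975) or naive replicate 4 (0.0559).

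Psma6 had 6.97, 7.34 and 7.88 in MIA rats at day 0 and 6.87, 6.96 and 7.46 at day 28, with overlap. The naive rats had 7.24, 7.53, 7.53 and 7.81 at day 0 and 6.94, 7.34, 6.85 and 7.07 at day 28. Psma6 fell by 0.42 in all rats (SE 0.12, adjusted p = 0.0156). This call was lost without naive replicate 3 (adjusted p = 0.0685) or naive replicate 4 (0.0597). Psma4, Psma5 and Psma7 had day 28 changes of 0.48, 0.51 and 0.36 in MIA rats, and the naive changes were 0.16, -0.01 and 0.02, with no call. The remaining beta genes were not called either, and in all rats they ran from Psmb1, with -0.11 ± 0.09 (SE), to Psmb4, with 0.32 ± 0.14. With array weights Psma4, Psma7 and Psmb4 were called in MIA rats at day 28 (adjusted p = 0.0401, 0.0259 and 0.0324), and after shifting the arrays to the same median Psma7 and Psmb4 were (0.0305 and 0.0492). Over the 12 core genes without the immunoproteasome the median change at day 28 was 0.26 in MIA and -0.03 in naive rats, against 0.59 and 0.19 over the immunoproteasome genes and -0.02 and -0.01 over all probe sets.

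In the regulatory particle the calls among ATPases were rises and those among non-ATPases falls, and the difference between these classes was not tested. Of the 5 base ATPases, which unfold substrates and open the gate, 3 rose in all rats at day 28 and 0 fell. Of all probe sets 7.37% were higher and 4.58% lower, and of those at or above the median signal 20.6% were called in either direction. The ATPases called were Psmc1 (0.31 ± 0.09, SE), Psmc2 (0.34 ± 0.11) and Psmc6 (0.35 ± 0.11). The adjusted p-values were 0.0214, 0.0389 and 0.0343. After a further quantile normalization none of these 3 passed, with changes of 0.14, 0.18 and 0.20 for Psmc1, Psmc2 and Psmc6. Leaving out MIA replicate 3 ended the calls of Psmc1, Psmc2 and Psmc6 (adjusted p = 0.0521, 0.0914 and 0.079). Naive replicate 1 also decided Psmc1 (0.115) and Psmc2 (0.107), naive replicate 4 also Psmc2 (0.15) and Psmc6 (0.189), and naive replicate 3 also Psmc6 (0.0838). MIA replicates 2, 4 and 6 also decided Psmc2 (0.0578, 0.0531 and 0.0683), and MIA replicates 1 and 4 also Psmc6 (0.0634 and 0.08). Psmc4 had the lowest change of the class, -0.12 ± 0.13, and it was not called.

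Psmc2 was also called in MIA rats alone. It had 4.63, 4.97 and 5.16 (lowest, median, highest) in MIA rats at day 0 and 5.30, 5.43 and 5.72 at day 28, without overlap. Naive values were 4.77, 5.39, 5.29 and 4.94 at day 0 and 5.17, 5.24, 5.09 and 5.61 at day 28, with overlap. The MIA rise of Psmc2 was 0.51 ± 0.14 (SE, adjusted p = 0.0335, higher in 6 of 6), and it was called in 5 of the 10 fits without a rat, the exceptions being those without MIA replicate 1, 2, 3, 4 or 6, with adjusted p up to 0.147. After a further quantile normalization it was 0.33 and not called (adjusted p = 0.112).

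Of the 9 non-ATPases, 0 rose and 2 fell in all rats at day 28, both lid subunits, against 7.37% and 4.58% of all probe sets. Of the probe sets at or above the median signal 20.6% were called in either direction, so a count of 2 among 9 is near that background. Psmd8 had the largest change of all members. In MIA rats it had 4.09, 4.40 and 4.88 (lowest, median, highest) at day 0 and 3.06, 3.88 and 4.14 at day 28. In naive rats it had 4.23, 4.73, 4.46 and 4.26 at day 0 and 3.78, 2.95, 3.98 and 3.10 at day 28. MIA rats overlapped slightly and naive rats did not, and each of the 10 rats was lower at day 28. Psmd8 fell by 0.62 at day 21 (SE 0.16, adjusted p = 0.0157) and by 0.81 at day 28 (SE 0.15, adjusted p = 0.000385) in all rats. The day 28 call held without any single rat. In MIA rats Psmd8 fell by 0.66 (SE 0.20, adjusted p = 0.0431), a call lost without MIA replicate 1, 2, 3, 4 or 6 (adjusted p up to 0.138). It was also lost after shifting the arrays to the same median (0.053) and held after a further quantile normalization (-0.81, adjusted p = 0.0142). In naive rats Psmd8 fell by 0.97 (SE 0.24, adjusted p = 0.0222), a call lost without naive replicate 2 (-0.69, adjusted p = 0.222), 3 (0.0542) or 4 (0.117). The day 21 call was lost without MIA replicate 3 (0.0507) or naive replicate 2 (0.0622) or 3 (0.0847).

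Psmd13, the other lid gene, fell by 0.38 at day 21 (SE 0.11, adjusted p = 0.0271) and by 0.30 at day 28 (SE 0.10, adjusted p = 0.049) in all rats. The day 28 call held in 1 of the 10 fits without a rat, that without naive replicate 3, and the day 21 call in 3, those without MIA replicate 4 or 6 or naive replicate 2. Both calls were lost after shifting the arrays to the same median (adjusted p = 0.0811 and 0.0609). Both held after a further quantile normalization, with -0.40 at day 28 (adjusted p = 0.00601) and -0.39 at day 21 (0.0159). The other 7 non-ATPases lay between -0.11 and 0.31 at day 28 in all rats. Psmd6, a lid subunit, was the highest with 0.31 ± 0.13 (SE, adjusted p = 0.105). With array weights it was called (adjusted p = 0.0477), and in MIA rats alone it was called with those weights (0.0199) and after shifting the arrays to the same median (0.0364). Psmd14, the deubiquitinase of the lid, had 0.13 ± 0.10. Over the 14 genes of the regulatory particle the median change at day 28 was 0.11 in MIA and 0.02 in naive rats.

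Of the activators, Psme4 fell and Psme1 was not called. Psme4 encodes a large single-chain activator, which also binds acetylated histones and in mice has a role in sperm development. Its promoter, chr14:108706493-108706672 on the plus strand, is shown because Psme4 is the member with the smallest p. The capitals are a TGACNNNGC match on the opposite strand, beginning at -55.
Psme4: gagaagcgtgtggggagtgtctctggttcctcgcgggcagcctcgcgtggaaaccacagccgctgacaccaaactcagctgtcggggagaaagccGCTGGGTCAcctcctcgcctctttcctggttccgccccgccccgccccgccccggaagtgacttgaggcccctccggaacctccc

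Psme4 had 6.71, 6.98 and 7.50 (lowest, median, highest) in MIA rats at day 0, 6.70, 6.75 and 7.04 at day 2, 6.33, 6.61 and 6.87 at day 14, and 6.33, 6.43 and 6.57 at day 28. At day 21 the 5 MIA rats had 6.56, 6.78, 6.39, 6.30 and 6.25. Naive signals were 6.82, 7.03, 7.09 and 6.99 at day 0, and 6.32, 6.40, 6.55 and 6.37 at day 28. Days 0 and 28 did not overlap in either treatment, and each of the 10 rats was lower. In MIA rats Psme4 fell by 0.57 at day 28 (SE 0.11, adjusted p = 0.00143), and in naive rats it fell by 0.57 (SE 0.13, adjusted p = 0.0134). The difference between treatments was -0.00, with a 95% interval from -0.35 to 0.34. In all rats Psme4 fell by 0.56 at day 21 (adjusted p = 9.52e-05) and by 0.57 at day 28 (adjusted p = 1.51e-05), and both calls, like the MIA day 28 call, held without any single rat. The MIA day 21 call (-0.56) was lost without MIA replicate 3, 5 or 6 (adjusted p up to 0.106). The naive day 28 call was lost without naive replicate 2, 3 or 4 (up to 0.0871), and the naive day 21 call held in 2 of the 10 fits without a rat, those without MIA replicate 2 or 4.

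Psme1, an interferon-inducible part of the ring-shaped activator of immunoproteasomes, changed by 0.01 ± 0.20 (SE, adjusted p = 0.986) in MIA rats and by -0.36 ± 0.24 (adjusted p = 0.528) in naive rats at day 28. Psmf1, which encodes an inhibitor that binds the core, had signals from 9.32 to 9.98 in MIA rats at day 0 and from 8.98 to 9.70 at day 28, with overlap. The naive rats had 10.09, 9.79, 9.75 and 9.35 at day 0 and 9.78, 9.34, 8.75 and 8.82 at day 28. Naive replicate 1 was the highest of its group at both days. Psmf1 fell by 0.42 in all rats at day 28 (SE 0.14, adjusted p = 0.0381). The call was lost after shifting the arrays to the same median (adjusted p = 0.0694) or a further quantile normalization (0.0955) and held in 1 of the 10 fits without a rat, that without naive replicate 1. The plot of Psme4, Psmd8 and 4 other members by rat shows these courses.

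**Figure D4:**
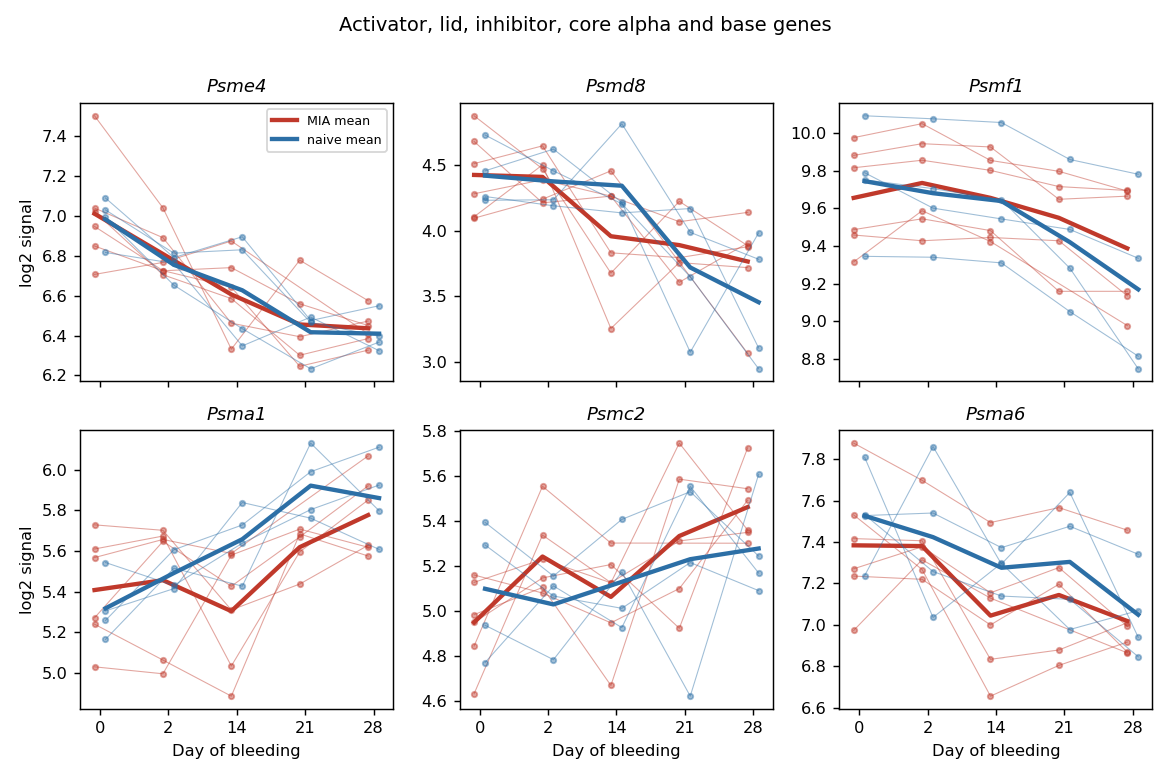
log2 signal on the y axis against the day of bleeding (evenly spaced) for the activator Psme4, the lid gene Psmd8, the inhibitor Psmf1, the alpha genes Psma1 and Psma6 and the ATPase Psmc2. Thin lines are single rats (red MIA, blue naive), thick lines are group means, and the line of MIA replicate 4 runs from day 14 to day 28. All 10 rats end lower than they began for Psme4 and Psmd8.

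None of the 5 assembly chaperones was called at any day. In all rats at day 28 they ran from Psmd10, with -0.13 ± 0.12 (SE), to Psmd5, with 0.26 ± 0.12. The 3 probe sets of tissue-restricted core genes, Psmb11 of the thymus and Psma8 of the testis, had means below the median of all probe sets. Psmb11 passed the test of the 4 days together (adjusted p = 0.00517), and with the rat as a block it also passed at day 21 in MIA rats (-0.64, adjusted p = 0.039). The first Psma8 probe set had 0.13 ± 0.11 at day 28 in all rats. Among the 6 other matches, Psmb6l1 fell by 0.47 in all rats at day 28 (SE 0.14, adjusted p = 0.0218), a call lost without MIA replicate 3 or 4 or naive replicate 3 or 4 (adjusted p up to 0.0706). Its name marks it as a gene like Psmb6, and signal may be shared between the probe sets of these genes, so both are uncertain. The pseudogene Psmd1-ps1 passed the test of the 4 days (adjusted p = 0.0381), and Psmc3ip, a recombination factor and no proteasome gene, had 0.14 ± 0.12 at day 28.

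Calls among genes that work with the proteasome went in both directions. Of 7 proteasome-associated genes found of 10 listed, 1 rose and 1 fell in all rats at day 28. In that comparison 7.37% of all probe sets were higher and 4.58% lower. Of those at or above the median signal, 20.6% were called. Usp14, a deubiquitinase of the regulatory particle, rose by 0.41 ± 0.11 (SE, adjusted p = 0.00807), and Adrm1, a ubiquitin receptor, fell by 0.40 (SE 0.11, adjusted p = 0.0122). Of 9 regulators and shuttles found of 12, 2 rose and 1 fell. Ngly1, the cytosolic glycanase that processes the transcription factor of proteasome genes Nfe2l1, rose by 0.59, Nfe2l2, the oxidative stress factor, rose by 0.56, and Ubqln4, a shuttle of ubiquitinated proteins, fell by 0.90.

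Of 9 probe sets of MHC class I peptide loading and interferon control genes, 4 rose in all rats at day 28 and 0 fell. These were Erap1, the peptide-trimming enzyme of the endoplasmic reticulum (0.49), Tap2, a subunit of the peptide transporter (0.46), Pdia3 of the loading complex (0.52) and B2m, the light chain (0.16). The background in all rats was 7.37% of all probe sets higher and 4.58% lower. Of those at or above the median signal, 20.6% were called in either direction. In MIA rats alone 0 of these 9 probe sets passed at day 28, and in naive rats alone 1 did, a probe set of Pdia3 (0.75, adjusted p = 0.0101). Of all probe sets, 4.26% were called in MIA rats and 2.04% in naive rats. Only 1 of 5 ubiquitin genes was found, and it was not called. The median over the MHC class I list was 0.28 in MIA and 0.13 in naive rats.

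Markers of blood cell types moved over the same days. All 6 red cell precursor markers found fell in all rats at day 28, with a median of -0.69 and the defining genes Klf1 and Epb42 at -0.83 and -0.58. Their summed linear signal lay between 5697 and 7220 in MIA rats at day 0 and between 3801 and 5480 at day 28. In naive rats it lay between 6022 and 7356 and then between 4268 and 5348. All 9 NK and cytotoxic cell markers rose, with a median of 0.88, and their summed signal lay between 217 and 358 in MIA rats at day 0 and between 446 and 595 at day 28. Naive rats had 272 to 377 and then 393 to 811. Of neutrophil markers 4 of 10 were called higher, of monocyte markers 4 of 8, of T cell markers 3 of 10, and of B cell and platelet markers 0 of 6 each. None of these lists had a marker called lower. By sign alone, 7 of 10 neutrophil and 2 of 6 platelet markers were above 0, and all monocyte, T cell and B cell markers were. The leukocyte genes Ptprc and Coro1a both rose. Beside these counts, 7.37% of all probe sets were higher and 4.58% lower in all rats at day 28. Of those at or above the median signal, 20.6% were called in either direction. Every marker found, except Ms4a7 of the monocyte list, had a mean signal above the median of all probe sets, which matches the labelled blood. In bulk blood, fewer cells of a type and less RNA per cell cannot be told apart, and the part of cell composition in the changes of the members was not tested.

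The members varied together across arrays. After the group means were removed, the mean correlation between pairs of members over 49 arrays was 0.194, and between pairs of probe sets with a single symbol 0.0418, and 0.0789 for those at or above the median signal. These are descriptions over arrays that include repeats of the same rats and share normalization. Within classes the mean was 0.337 over the immunoproteasome genes and 0.435 over the constitutive catalytic genes, and 0.324 between these classes. With the mean of the red cell precursor markers, Psmf1 had a correlation of 0.74, Psmb6l1 0.66, Psmb6 0.64, Psme1 0.56 and Psme4 0.51. With the neutrophil markers Psmd12 had 0.60, Psmf1 0.54, Psmb1 0.53, Psme1 0.53, Psmb6 0.49, Psmb6l1 0.44 and Psme4 0.41. With the monocyte markers Psme4 had 0.52 and Psme1 0.44. With the T cell markers, Psma7 had 0.69, Psmb8 0.66, Psmd1 0.66 and Psma1 0.59, while Psmf1 had -0.55 and Psmb6 -0.34. Psmb9 had its highest correlation with neutrophil markers, 0.46, then 0.38 with NK and cytotoxic cell and 0.27 with red cell precursor markers. It had 0.22 with B cell, 0.20 with monocyte and 0.19 with T cell markers. Psmb10 had 0.51 with NK and cytotoxic cell, 0.41 with B cell and 0.37 with T cell markers. Similar values with NK and cytotoxic cell markers were found for Psmd12 (0.52), the constitutive Psmb7 (0.51) and Psmb8 (0.48). Psmd8 was near neither, with 0.27 for red cell precursor and -0.21 for T cell markers.

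**Figure D5:**
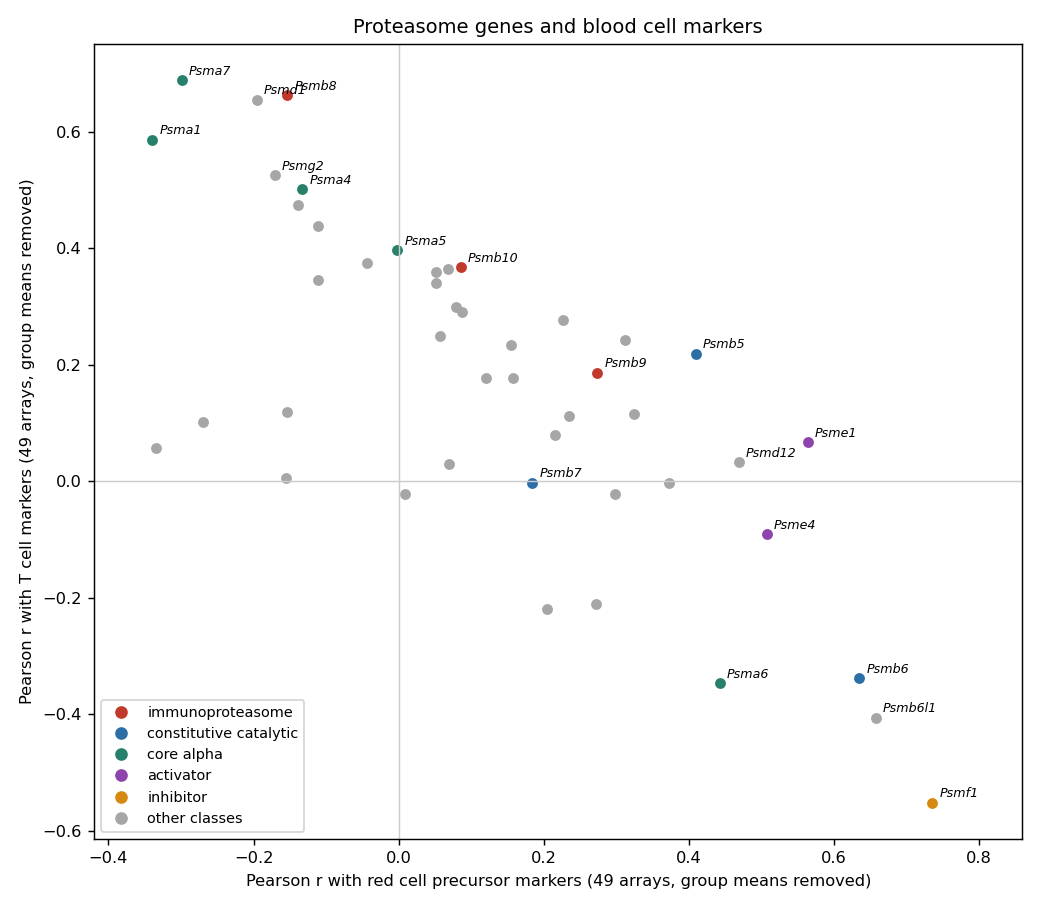
Pearson correlation of each member with the mean of the red cell precursor markers (x axis) and of the T cell markers (y axis) over 49 arrays after the group means were removed, one point a member, coloured by class. Psmf1, Psmb6l1 and Psmb6 lie at the lower right, from 0.64 to 0.74 on the x axis, and Psma7, Psmb8, Psmd1 and Psma1 at the upper left, from 0.59 to 0.69 on the y axis.

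No member differed between the changes of MIA and naive rats. At days 2, 14, 21 and 28, 0 members were called (limma), against 0% of all probe sets each time, and 1, 4, 2 and 1 members had an unadjusted p under 0.05. The test of the 4 days together also called 0, with 4 members under an unadjusted p of 0.05. These unadjusted counts, too, stand without the share of all probe sets at that threshold and are not read as a result. The immunoproteasome genes had the MIA change above the naive change at day 28 by 0.41 for Psmb8 (95% interval -0.11 to 0.92), 0.35 for Psmb9 (-0.08 to 0.78) and 0.45 for Psmb10 (-0.06 to 0.95). Each interval includes 0 and also values as large as the MIA rise itself. For Psmd8 the difference was 0.31 (-0.32 to 0.93), for Psmc2 0.33 (-0.13 to 0.79), for Psma1 -0.17 (-0.60 to 0.25) and for Psmb7 0.36 (-0.05 to 0.77). The calls made in MIA rats and not in naive rats therefore do not show a difference between the treatments.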

How the data were processed

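Blood RNA of 10 rats (6 MIA, 4 naive) was measured on 50 Affymetrix Rat Gene 2.0 ST arrays, 5 days a rat. The authors subtracted the background and normalized by quantiles, and each deposited value is the log2 signal of a probe set. The submitters' processing notes name oligo 1.36.1, and how probes were summarized is not given in the sources used here. Arrays give no depth, and their number limits the precision.

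The deposited values of 36685 probe sets on 49 arrays, without MIA day 21 replicate 4, were fitted with limma 3.58.1 (R 4.3.3), with a mean for each of 10 groups, as 17 comparisons and 2 F tests. Tests were two-sided, and p-values were adjusted by Benjamini-Hochberg over all probe sets within a comparison, at 0.05. The script was tested on simulated data. Members were the probe sets with a single symbol in the platform table, which 14824 probe sets have. The members and lists were chosen with earlier results of these data known. Named were the catalytic subunits, Psme1, Psme2, members past the threshold in any comparison, up to 20 by p, the extremes of each class, and up to 4 genes a related list. Psme2 has only a probe set with several symbols and is not reported.

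The labels number the animals, so the arrays of a number and treatment are 1 rat. Their mean correlation, with group means removed, was 0.0821 (0.0473 to 0.134 by rat), against -0.0639 between rats of a treatment. Removing a group mean itself makes the rats of that group correlate negatively, so the second value is partly fixed in advance. The correlation fitted for the rat block was 0.0319. Alternatives were a block for the rat, all 50 arrays, array weights, 2 other scalings, other filters and variance models, and leaving out each rat. Promoters were RefSeq sequences (GRCr8), searched in Python 3.11.15, and figures were drawn with matplotlib 3.10.9.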

Additional observations from a re-analysis of the deposited data

Results flagged for a closer look

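Groups of 4 to 6 rats were searched for a rat far from the others, over 76 groups of values of 19 genes, and 3 were found. Chance flags about 1 in 20 groups. Psmb9 at day 0 was 5.30 in MIA replicate 3, with the other MIA rats at 4.90 to 5.05. Psma6 at day 28 was 7.46 in MIA replicate 2, with the others at 6.87 to 7.01. The pseudogene Psmd1-ps1 at day 28 was 2.78 in MIA replicate 5, with the others at 2.32 to 2.44.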

How the results depend on the processing

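The number of called members changed with the array left out, with array weights and with the scaling. With all 50 arrays it was 0 in MIA, naive and all rats at days 21 and 28, and 1 in the test of the 4 days. The balance of Psmb8 and Psmb5 in MIA rats at day 21 then turned to -0.0261. With array weights the counts were 3 and 12 in MIA rats at days 21 and 28, 0 in naive rats at day 21, 10 in all rats at day 21 and 17 in the test of the 4 days. After a further quantile normalization they were 3 in MIA rats at day 28, 2 and 4 in naive rats at days 21 and 28, and 1 and 9 in all rats at days 14 and 28. Shifting the arrays to the same median gave 0 in naive rats at day 21 and 9 in MIA rats at day 28. Under a replicate block for the rat, MIA day 21 had 2 calls, all rats day 21 had 6 with Psmb6l1 added (-0.45, adjusted p = 0.041), the test of the 4 days had 12, and no other count changed. Probe sets with a single symbol gave 2 calls in MIA rats at day 21, where 169 of all 14824 were called. Those at or above the median gave 4 in naive rats at day 28, where 1118 of all 18343 were called. Fitting each treatment alone gave 2 in MIA rats at day 21, 4 in MIA rats at day 28, without Psmb8 and Psmb10, and 0 in naive rats at both days. The number of all probe sets called changed too. In MIA rats at day 28 it was 1564 of 36685 in the main fit and 4 with all 50 arrays. It was 4055 with array weights, 2499 after shifting the arrays to the same median and 1211 after a further quantile normalization. In naive rats at day 28 it was 750 in the main fit, 2 with all 50 arrays and 1174 with array weights. With all 50 arrays the change of Psme4 in MIA rats at day 28 was still -0.57, and its adjusted p was 0.499. All 10 groups share 1 variance per probe set in the fit, so that array enters the tests of every day. The cause of these changes in the counts was not tested.

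Without one rat, the counts in MIA rats ran from 0 to 2 at day 21 and from 2 to 6 at day 28. Of all 36685 probe sets, 24 to 339 and 303 to 1987 were called in these fits. In naive rats the counts ran from 0 to 1 at day 21 and from 0 to 3 at day 28. Of all probe sets, 2 to 126 and 45 to 783 were called there. In all rats the counts ran from 1 to 5 at day 21 and from 6 to 12 at day 28, and from 4 to 11 in the test of the 4 days. Counts in this section without a number for all probe sets are not read as a result about the members. In MIA rats at day 28 the count was 2 without MIA replicate 1 or 3 and 3 without MIA replicate 2 or 4. Of all 36685 probe sets, 346, 303, 649 and 631 were then called without MIA replicate 1, 3, 2 and 4, respectively. In all rats at day 28 it was 6 without MIA replicate 3 or naive replicate 4, 7 without naive replicate 3, 8 without MIA replicate 4, and 9 without MIA replicate 1 or naive replicate 1. For single called genes under the alternatives, 397 values stayed past the threshold, 164 did not, and 0 changed direction.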
